A study of Mus musculus with 6 samples.

Results

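The genes described here are 9 members of the AP-1 group of transcription factors, *Jun*, *Junb*, *Jund*, *Fos*, *Fosb*, *Fosl2*, *Atf3*, *Atf4* and *Batf3*, out of 32285 genes in the count tables. They were taken by symbol, and all 9 were found. The 6 libraries came from the brains of 3 male C57BL/6J mice aged 89 days, and each brain gave 1 library from either version, V3.0 or V3.1, of the 10X Genomics 3′ single-cell kit. All 3 whole brains were dissociated by cold Dounce homogenization, and live cells positive for both CD45 and CD11b were sorted after the meninges had been stripped away. Mice 1 and 3 were prepared without inhibitors (DNC-NONE). In mouse 2 (DNC-INHIB), actinomycin D and triptolide, which block transcription, were present from perfusion through homogenization, and anisomycin, which blocks translation, was added from dissection onward. Since only 1 mouse received inhibitors, its identity and the inhibitors cannot be told apart.

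AP-1 proteins bind DNA as pairs held together by leucine zippers. Jun proteins pair with each other or with Fos, Atf and Batf proteins, whereas Fos proteins need a Jun partner. *Fos*, *Fosb*, *Jun*, *Junb* and *Atf3* are immediate early genes, transcribed within minutes of a stimulus, and are widely read as signs of a response to tissue handling, while *Jund* is known for steadier expression. *Atf4*, the effector of the integrated stress response, is controlled largely at translation, so its mRNA is a poor gauge of its protein. *Batf3* is best known for its part in dendritic cell development. Microglia are the macrophages of the brain tissue itself, border macrophages live in the meninges and around vessels, and neutrophils and monocytes are blood cells.

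In the GRCm38 assembly with GENCODE vM21 annotation, *Jun* (ENSMUSG00000052684) lies on the minus strand of chromosome 4, from 95049034 to 95052222, and *Junb* (ENSMUSG00000052837, chromosome 8, 84974484 to 84978718, minus strand) and *Jund* (ENSMUSG00000071076, chromosome 8, 70698949 to 70700616, plus strand) likewise have 1 exon. *Fos* (ENSMUSG00000021250) has 4 exons on the plus strand of chromosome 12, from 85473890 to 85477273. *Fosb* (ENSMUSG00000003545) lies on chromosome 7, from 19302696 to 19310051, and *Fosl2* (ENSMUSG00000029135) on chromosome 5, from 32135801 to 32157842. *Atf3* (ENSMUSG00000026628) spans 191170296 to 191218039 on the minus strand of chromosome 1, and *Batf3* (ENSMUSG00000026630) lies on the plus strand of the same chromosome, from 191097847 to 191108945. *Atf4* (ENSMUSG00000042406) lies on chromosome 15, from 80255184 to 80257541. A gene on the opposite strand overlaps each Jun family member. In microglia these were *Junos* for *Jun* with 70 UMIs, *Prdx2* for *Junb* with 7985 UMIs and *Gm11175* for *Jund* with 15 UMIs. Strand use in the counting is not given in the sources used here.

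The sequences upstream of *Jun*, *Fos* and *Atf3*, a gene each of the Jun, Fos and Atf families, are shown because their windows held the letters searched for. Each is the 250 bases before the start site of the RefSeq gene (GRCm38.p6), read 5′ to 3′ on the gene's own strand, at chr4:95052223-95052472 (minus) for *Jun*, chr12:85473640-85473889 (plus) for *Fos* and chr1:191183334-191183583 (minus) for *Atf3*. Capitals mark matches, on either strand, to the letters TGACNTCA or TGACGT, forms of the cAMP response element to which Jun and Atf proteins can bind.
Jun: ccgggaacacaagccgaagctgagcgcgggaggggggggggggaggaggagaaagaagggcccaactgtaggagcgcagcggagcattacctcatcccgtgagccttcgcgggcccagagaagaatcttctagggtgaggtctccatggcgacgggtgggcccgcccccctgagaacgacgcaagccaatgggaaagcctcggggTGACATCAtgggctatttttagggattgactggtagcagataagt
Fos: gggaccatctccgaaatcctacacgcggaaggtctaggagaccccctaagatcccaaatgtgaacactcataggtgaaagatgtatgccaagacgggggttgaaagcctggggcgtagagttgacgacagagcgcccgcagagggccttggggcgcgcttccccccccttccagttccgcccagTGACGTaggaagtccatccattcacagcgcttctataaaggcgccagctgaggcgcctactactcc
Atf3: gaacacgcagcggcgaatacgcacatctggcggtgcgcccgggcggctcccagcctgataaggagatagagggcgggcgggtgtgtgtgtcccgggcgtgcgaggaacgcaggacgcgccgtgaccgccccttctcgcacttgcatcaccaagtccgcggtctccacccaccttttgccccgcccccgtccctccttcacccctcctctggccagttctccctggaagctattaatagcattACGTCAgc
TGACNTCA was found in 7.49% of the 32851 promoter windows in the RefSeq table and in that of *Jun* alone among the 9 members. TGACGT occurred in 6.47% of windows and in those of *Fos* and *Atf3*. The TATA box letters TATAAA, present in 12.4% of windows, were found in *Fos* only. No member's window held TGANTCA, the consensus for Jun and Fos pairs, which 6.75% of windows hold, or a CArG box of serum response factor, which 1.47% hold. These letters can overlap, and they were chosen with the windows in view.

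Total counts ran from 6275898 to 18872816 UMIs per library, and 19725 of 29412 barcodes passed the quality filter on genes, UMIs and mitochondrial share. The DNC-NONE V3.0 library of mouse 3 stood apart, with 21.5% of barcodes passing against 70.0% to 76.8% in the others. Pairs of libraries shared between 1 and 14 barcodes. Cells were assigned by marker genes, none of them an AP-1 gene, which gave 18867 microglia, 26 border macrophages (2 to 10 per library), 312 neutrophils (23 to 63) and, as a group added after seeing the data, 79 monocytes (6 to 27). With the lower limit on genes per cell eased to 500, there were 678 neutrophils and 23016 microglia. In the DNC-NONE V3.0 library of mouse 3, neutrophils then numbered 127 against 23. Neutrophil levels and shares below thus describe only the neutrophils with enough genes to pass the higher limit. Since markers made the assignment, their share among the assigned cells is no check of it: *P2ry12* was found in 99.8% of microglia, *Pf4* in 100% of border macrophages, *Ly6g* in 84.6% of neutrophils and *Ccr2* in 92.4% of monocytes. Markers of other types were also found, *P2ry12* in 61.5% and *Gpr34* in 73.1% of border macrophages, *S100a8* in 69.3% of microglia and *Ly6c2* in 83.0% of neutrophils, while *Ly6g* had 0 UMIs in border macrophages and monocytes and *Ccr2* 0 in neutrophils. Neutrophil markers summed to 437489 to 471435 CPM in neutrophils, where CPM is the UMIs of a gene relative to all UMIs of those cells, scaled to 1000000. Their transcripts were also found in microglia, at 740 to 1447 CPM, and microglial markers in neutrophils summed to 381 to 1171 CPM. Levels below are CPM of a cell type in a mouse, both kits added, given for mice 1, 2 and 3. The 3′ kit counts transcript ends, so no correction for gene length was made.

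*Jun*, *Junb* and *Jund*, the partners that Fos proteins need, were abundant in microglia, while *Fos* and *Fosb* were almost absent there. *Jun* stood at 179, 148 and 188 CPM in microglia, a mean of 172 ± 20.7 (SD, n = 3). *Junb* was at 264, 259 and 234 (252 ± 16.3) and *Jund* averaged 229 ± 16.6 (SD, n = 3). *Fos*, the prototype of the Fos family, was at 0.626, 1.32 and 0.663 CPM (62 UMIs in all microglia), and *Fosb*, its closest relative, had 24 UMIs in all. Every mouse thus had far more *Jun* than *Fos* in its microglia. *Fosl2*, a Fos family member that lacks the strong activation domain of Fos, stood between them at 9.60 ± 1.30 (SD, n = 3). *Atf4* averaged 90.9 ± 5.61, *Batf3* 52.0 ± 3.21 and *Atf3*, a stress-induced member that often acts as a repressor, 13.7 ± 0.133 (SD, n = 3), with 13.6, 13.8 and 13.8 in the 3 mice. The order in microglia was *Junb*, *Jund*, *Jun*, *Atf4*, *Batf3*, *Atf3*, *Fosl2*, *Fos* and *Fosb*. *Junb* and *Jund* overlapped over the mice, and so did *Fos* and *Fosb*, while the other neighbours in that order did not.

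**Figure D1:**
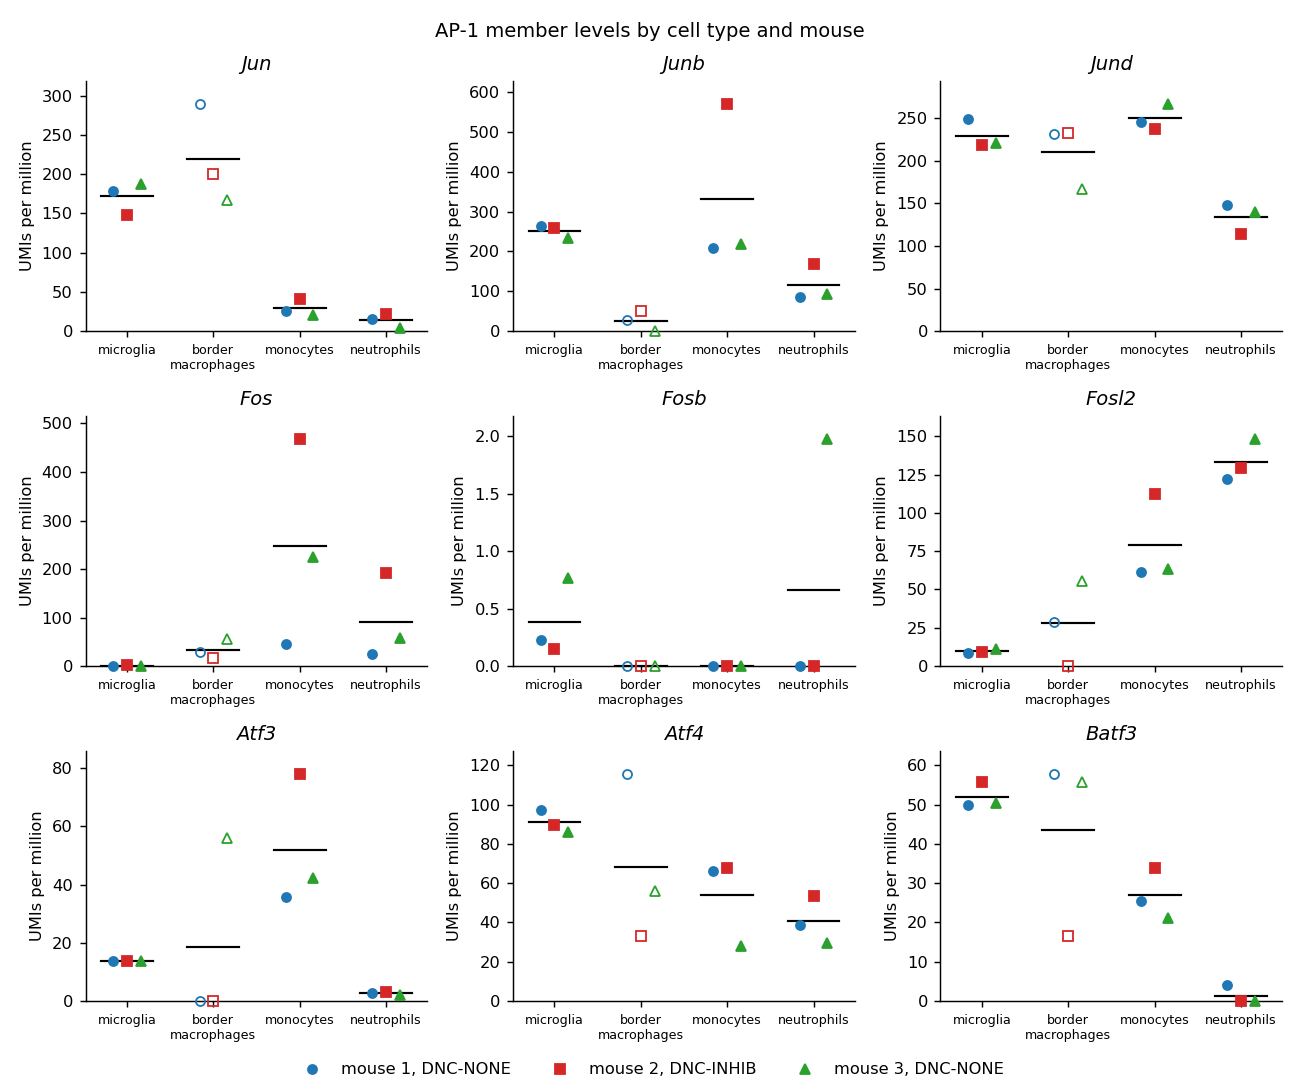
Level of each AP-1 gene, in CPM (y axis), in microglia, border macrophages (open symbols), neutrophils and monocytes, with a point for each of the 3 mice and a black line at their mean. *Jun* is high in microglia and border macrophages and low in neutrophils, and *Fos* runs the other way, from 0.871 in microglia to 91.7 in neutrophils and 247 in monocytes.

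In neutrophils, the Jun family members differed from each other. *Jun* was at 15.9, 22.1 and 3.96 CPM, with no overlap with the microglial mice, a ratio of pooled counts of 0.0873 (95% counting interval 0.0580 to 0.126, 28 UMIs). *Junb* was at 86.3, 169 and 93.0 (116 ± 45.8), 0.457 of the microglial level (0.398 to 0.522). *Jund* averaged 134 ± 18.4 (SD, n = 3), a ratio of 0.588 (0.517 to 0.665). Of these 3 genes, *Jun* was thus the furthest below its microglial level. At the ratio of *Jun* to microglial markers in microglia, the microglial marker UMIs found in neutrophils would bring 17.1 *Jun* UMIs with them, against 28 measured, while the same reckoning gives 25.5 of 219 for *Junb*. The part of such carried-over RNA in the neutrophil level of *Jun* was not tested.

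*Fosl2* and *Fos* ran higher in neutrophils. *Fosl2* was at 122, 129 and 148 CPM, a mean of 133 ± 13.6 (SD, n = 3) and 13.8 times the microglial level (11.9 to 16.0), with no overlap. *Fos* was at 25.2, 192 and 57.4 (91.7 ± 88.7), a ratio of 99.1 (73.7 to 135). The 3 mice differed widely in *Fos*, and the lowest of them was still above every microglial mouse. *Fosb* had a single UMI in neutrophils, a ratio of 1.51 with a counting interval of 0.0366 to 9.23. *Atf4* averaged 40.6 ± 12.1 in neutrophils. *Batf3* had 3 UMIs there, all in mouse 1, a ratio of 0.0303 (0.00624 to 0.0886), which is fewer than the 5.27 that carried-over microglial RNA would bring by the reckoning above. *Atf3* had 5 UMIs, at 2.60 ± 0.590 CPM against 13.7 in microglia, a ratio of 0.192 (0.0623 to 0.450).

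How these differences are scaled decides the direction for 3 of the genes. With neutrophil markers filling so much of each neutrophil sum, edgeR's trimmed mean (TMM) scaling gave microglia a factor 2.78 times that of neutrophils, and the fit compares genes with the bulk of other genes rather than with total UMIs. In that fit, 7 of the 9 members passed the filter on low counts, and *Fos* and *Fosl2* are low in microglia and could pass through neutrophils alone. Of the 7, 3 were called higher and 2 lower in neutrophils, with a call needing a log2 fold change beyond 0.58 and an adjusted p under 0.05, where 30.3% of 7957 genes were called higher and 34.1% lower (2414 and 2713 genes, and 917 and 5933 with no scaling factors). *Fos* was higher by 8.08 ± 0.39 (log2 fold change with its standard error, adjusted p = 9.86e-26) and *Fosl2* by 5.23 ± 0.17 (adjusted p = 2.94e-33). *Jun* fell by 2.09 ± 0.26 (adjusted p = 5.81e-10) and *Batf3* by 3.59 ± 0.55 (adjusted p = 9.38e-08). *Jund* was called higher by 0.68 ± 0.13 (adjusted p = 1.47e-05), and *Junb* at 0.32 ± 0.15 and *Atf4* at 0.30 ± 0.19 were not called (adjusted p = 0.0536 and 0.161). Relative to total UMIs, with no scaling factors, *Jund* (−0.79), *Junb* (−1.15) and *Atf4* (−1.17) were all called lower (highest adjusted p = 3.87e-08), while *Fos* (6.61), *Fosl2* (3.76), *Jun* (−3.56) and *Batf3* (−5.05) kept their directions. The median log2 fold change of all genes was −0.16 with TMM scaling and −1.63 without. With a wider marker gate that took in 350 neutrophils, *Jun* was at −0.55 and no longer called (adjusted p = 0.0806). In the fit without the filter on low counts, *Atf3* was not called (−1.03, adjusted p = 0.190).

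**Figure D2:**
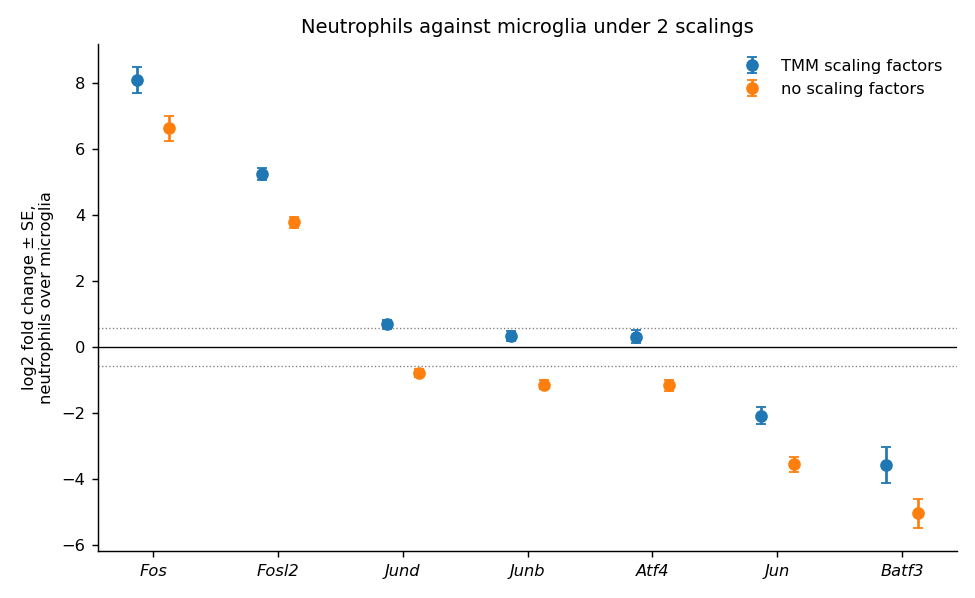
Log2 fold change in neutrophils against microglia (y axis) for the 7 AP-1 genes that passed the filter, with TMM scaling and with no scaling factors; bars are standard errors over 3 mice and dotted lines mark 0.58 either way. *Fos* and *Fosl2* lie above 0 and *Jun* and *Batf3* below it under both, while *Jund*, *Junb* and *Atf4* change side.

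Border macrophages were near microglia in *Jun* and *Jund* and below them in *Junb*. *Jun* was at 290, 200 and 167 CPM, overlapping microglia, with a log2 fold change of 0.40 (interval of 2 standard errors, −0.31 to 1.12, adjusted p = 0.572). *Jund* averaged 211 ± 37.5 (SD, n = 3), a difference of −0.02 (−0.66 to 0.63). *Junb* was at 29.0, 50 and 0 CPM (4 UMIs), below every microglial mouse, and fell by 2.80 ± 0.60 (adjusted p = 0.000532). It was the only member called of 7 tested, where 4.98% of genes were called lower and 4.6% higher. On simulated data this comparison recovered 2% of 2-fold rises and 46% of 4-fold rises, so a member not called could still differ. The call for *Junb* held without each mouse in turn (highest adjusted p = 0.00786). It was lost with the wider gate of 65 border macrophages, chosen after seeing the data (−0.75, adjusted p = 0.0520), under which *Jund* was called higher (0.62, adjusted p = 0.0275).

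*Fos* had 3 UMIs in the 26 border macrophages, 1 in each mouse, which is a ratio of 29.4 to microglia with a counting interval of 5.91 to 90.1. It was not called (log2 fold change 4.90 ± 1.98, adjusted p = 0.119), but was called once the mouse entered the fit as a block (4.73, adjusted p = 0.0159). *Fosl2* had 2 UMIs, *Atf3* 1, *Batf3* 4, *Atf4* 7 and *Fosb* 0. The 112490 UMIs of border macrophages allow a gene with 0 UMIs a level of up to 26.7 CPM, so *Fosb* at its microglial level would not have been detectable there. The single *Atf3* UMI gives a ratio to microglia of 0.647 (counting interval 0.0164 to 3.61) and the 2 of *Fosl2* one of 1.87 (0.226 to 6.78), too wide to place either gene above or below microglia.

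Neutrophils against border macrophages, with the same neutrophil and border macrophage samples as above, called 5 of 7 members where 30.1% of all genes were called. *Fosl2* (4.31 ± 0.63), *Fos* (3.18 ± 0.91) and *Junb* (3.12 ± 0.60) were higher in neutrophils and *Jun* (−2.49 ± 0.49) and *Batf3* (−3.07 ± 1.21) lower. The highest of these adjusted p-values was 0.0480, for *Batf3*, which lost the call (adjusted p = 0.0535) when the mouse was blocked. With mouse 2 left out, *Fos* and *Batf3* were not called (adjusted p = 0.271 and 0.126). *Jund* (0.69, adjusted p = 0.0952) and *Atf4* (0.82, adjusted p = 0.288) were not called, and *Atf3* and *Fosb* did not pass the filter. *Fosl2*, low in microglia and with 2 UMIs in border macrophages, could pass it through neutrophils alone. Its passing is thus not independent of the difference. With no scaling factors 3 members were called, *Fosl2* (2.87), *Jun* (−3.93) and *Batf3* (−4.50), while *Junb* (1.69, adjusted p = 0.0596) and *Fos* (1.75, adjusted p = 0.207) were not, and *Jund* (−0.74) and *Atf4* (−0.62) changed sign.

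Monocytes differed from neutrophils in *Atf3*, *Batf3*, *Junb* and *Fosl2*. *Junb* was at 209, 571 and 218 CPM in monocytes, *Fos* at 45.9, 469 and 225, and *Atf3* at 35.7, 78.1 and 42.2, the highest *Atf3* of the 4 cell types in mice 1 and 2. In a fit with monocytes added as a type, *Fos* (8.48 ± 0.51), *Fosl2* (3.44 ± 0.31), *Atf3* (2.33 ± 0.34) and *Junb* (0.83 ± 0.20) were called higher and *Jun* (−2.15 ± 0.30) lower than in microglia, with a highest adjusted p of 0.000562, where 25.3% of 6929 genes were called higher and 29% lower. *Jund* (0.40), *Atf4* (−0.35) and *Batf3* (−0.58) were not called, and *Fosb* did not pass the filter. *Atf3* passed it only once monocytes, where it is high, were in the fit, and *Fos* and *Fosl2* are low in microglia, so their passing is not independent of the difference. With no scaling factors *Junb* was not called (0.50) and *Batf3* (−0.90) and *Atf4* (−0.67) were called lower. Against monocytes, neutrophils had less *Atf3* (−3.50 ± 0.58, adjusted p = 3.72e-06), *Batf3* (−3.25 ± 0.77) and *Junb* (−0.75 ± 0.24, adjusted p = 0.0111) and more *Fosl2* (1.55 ± 0.24), where 23.5% of genes were called higher and 21.7% lower. Without the filter on low counts *Atf3* was at −3.47 (adjusted p = 3.73e-08). *Jun* (−0.19, adjusted p = 0.787) and *Fos* (−0.66, adjusted p = 0.182) were not called between them, and their mice overlapped, nor were *Jund* (0.03) and *Atf4* (0.40). With no scaling factors *Fos* (−1.57, adjusted p = 0.00134) and *Jund* (−0.89) were called lower in neutrophils and *Atf4* changed sign (−0.52), and without the filter on low counts *Fos* was also called (−0.65, adjusted p = 0.00459).

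Counted per cell, with every cell drawn down to 2000 UMIs, which left out 741 microglia and 1 monocyte, the same contrast appeared as a share of cells. *Jun* was found in 25.5% of microglia (exact 95% interval 24.9 to 26.2), 30.8% of border macrophages (14.3 to 51.8), 2.88% of neutrophils (1.33 to 5.41) and 3.85% of monocytes (0.800 to 10.8). *Fos* was found in 0.149% of microglia (0.0982 to 0.217), 7.69% of border macrophages (0.946 to 25.1), 14.4% of neutrophils (10.7 to 18.8) and 33.3% of monocytes (23.1 to 44.9). Without thinning, at median depths of 3515 UMIs in microglia and 5604 in neutrophils, *Jun* was in 37.3% and 5.77% and *Fos* in 0.276% and 24.4%. *Fosl2* was in 1.98% of microglia and 25.3% of neutrophils, *Atf3* in 2.58% and 0.641%, and *Batf3* in 9.58% and 0.962%. At the neutrophil ratio, the neutrophil marker UMIs found in microglia would bring 14.7 of the 62 microglial *Fos* UMIs. Those marker UMIs include *Csf3r*, at 176 CPM in microglia and 241 in neutrophils, where *S100a8* was at 368 and 175869. Not all of them need be carried over, so 14.7 can be too high. The intervals cover counting error only.

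Taken by family, at least 1 Jun gene was detected in 67.3% of microglia and at least 1 Fos gene in 2.18%, with both in 1.40%. In border macrophages these shares were 65.4%, 11.5% and 7.69%. Neutrophils had a Jun gene in 40.1%, a Fos gene in 33.3% and both in 18.3%, and monocytes in 70.5%, 47.4% and 33.3%. A Fos gene with no Jun gene was seen in 15.1% of neutrophils and 0.783% of microglia. None of the 9 members was detected in 23.9% of microglia, 41.3% of neutrophils and 12.8% of monocytes.

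**Figure D3:**
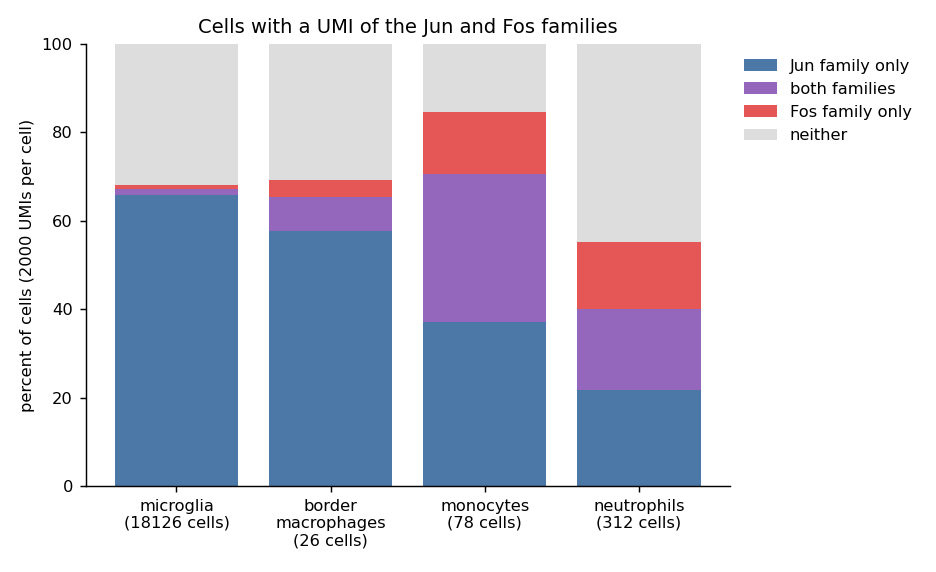
Share of cells, in percent, with a UMI of a Jun family gene only, a Fos family gene only, both or neither, in each cell type at 2000 UMIs per cell. Jun genes alone make up most of the detected cells in microglia and border macrophages, while both families are seen together in 18.3% of neutrophils and 33.3% of monocytes.

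The experiment asked whether the kit version changes what is detected. In microglia it moved none of the members past the thresholds: of 8 tested (*Fosb* was too low), 0 were called by edgeR's quasi-likelihood test and 0 by DESeq2, where 3.1% of 12025 genes were called by edgeR. At an unadjusted p below 0.05, a looser mark than a call, stood 3 members, *Jun*, *Junb* and *Atf4*. The share of all genes at that mark is not given here, so this count is a description only. *Atf4* moved most clearly. Its TMM-scaled level was 107, 99.8 and 102 CPM with V3.0 and 82.2, 79.2 and 83.5 with V3.1 in mice 1, 2 and 3, so that the kits did not overlap. The log2 fold change was −0.33 ± 0.07 (adjusted p = 0.00640, and 0.000137 to 0.0706 over the edgeR and DESeq2 alternatives), short of the fold threshold. *Jun* was at 165, 132 and 173 with V3.0 and 194, 170 and 192 with V3.1, so it was higher with the newer kit in all 3 mice (0.25 ± 0.09, adjusted p = 0.0934, or 0.00158 blocked by mouse). *Junb* averaged 237 ± 5.65 and 271 ± 30.4 (0.19 ± 0.08, adjusted p = 0.136, or 0.0108 blocked by mouse). *Atf3* was at 12.8 ± 0.158 with V3.0 and 14.5 ± 0.677 with V3.1 (SD, n = 3), again with no overlap (0.18 ± 0.11, adjusted p = 0.319). For *Fos*, at 1.02 ± 0.157 and 0.773 ± 0.658, the interval of the difference ran from −1.43 to 0.63. Those of *Jund* (−0.10 to 0.21), *Batf3* (−0.26 to 0.08) and *Fosl2* (−0.15 to 0.49) were narrower.

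**Figure D4:**
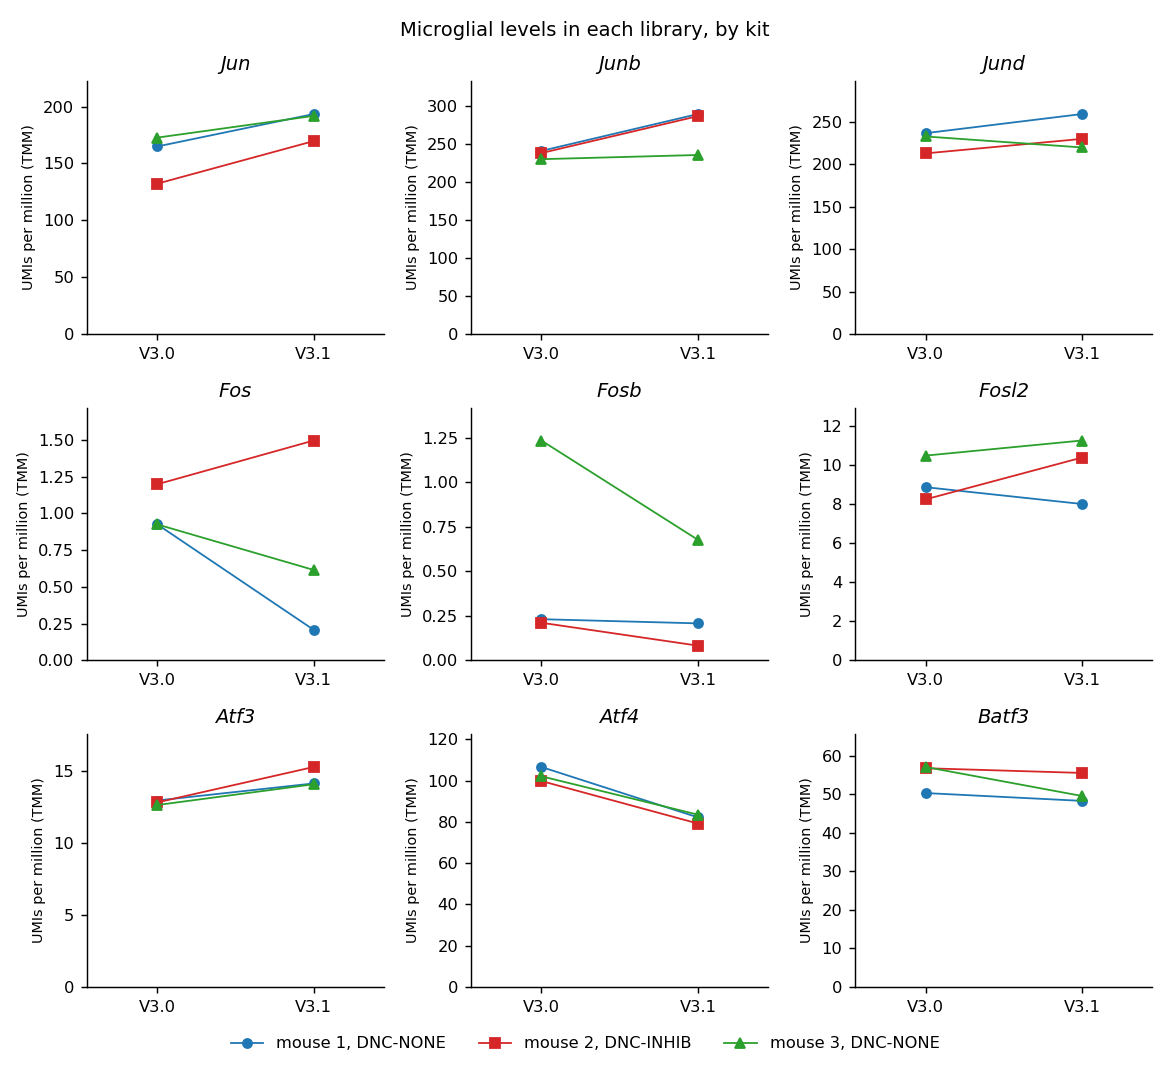
TMM-scaled level in microglia, in CPM, of each AP-1 gene by kit, V3.0 left and V3.1 right; lines join both libraries of a mouse. *Jun* rises and *Atf4* falls from V3.0 to V3.1 in all 3 mice, while *Fos* rises in mouse 2 and falls in mice 1 and 3.

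Shares of cells moved the same way. At 2000 UMIs per cell, *Atf4* was detected in 17.9% ± 1.75 of microglia with V3.0 and 14.7% ± 0.819 with V3.1, and *Atf3* in 2.37% ± 0.179 and 2.72% ± 0.169 (SD, n = 3). A two-sided exact permutation test gave p = 0.10 for both, the smallest that 3 libraries against 3 allow, and 0.45 adjusted over the 9 members. *Jun* was in 23.4% ± 2.23 and 27.2% ± 2.03 (exact permutation p = 0.20). In border macrophages and neutrophils, the lowest exact permutation p between kits was also 0.10, for *Batf3* (15.3 ± 26.5 with V3.0 and 92.6 ± 12.4 with V3.1 in border macrophages) and *Atf3* (0 and 4.53 ± 1.72 in neutrophils), with adjusted p-values of 0.80 and 0.90. Over all libraries these rest on 4 *Batf3* UMIs in border macrophages and 5 *Atf3* UMIs in neutrophils, so the SDs do not show the counting error.

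The DNC-INHIB mouse had the lowest *Jun* and the highest *Fos* of the 3 mice in microglia. In shares of microglia at 2000 UMIs per cell, it also lay outside both DNC-NONE mice for *Jund*, *Fosb*, *Atf3*, *Atf4* and *Batf3*. With 3 mice, it would often lie outside the others by chance. Its microglial *Jun*, 148 CPM, was below the 179 and 188 of the DNC-NONE mice, and it was the lowest of 3 with each kit. The log2 fold change was −0.29 ± 0.10 (unadjusted p = 0.00580, adjusted p = 0.262 by edgeR), and *Jun* was detected in 22.9% of its microglia at 2000 UMIs per cell against 27.0% and 27.3%. Its *Fos* was the highest of the 3 mice in microglia (1.32 against 0.626 and 0.663), in neutrophils (192 against 25.2 and 57.4) and in monocytes (469 against 45.9 and 225), but the lowest in border macrophages (16.7 against 29.0 and 55.8), where each mouse had 1 UMI. In microglia the *Fos* difference was 1.05 ± 0.50 (unadjusted p = 0.0461, adjusted p = 0.673). Over all mice, carried-over neutrophil RNA would bring 14.7 of the 62 microglial *Fos* UMIs at the neutrophil ratio, with *Csf3r* counted among the markers as above. The part of carried-over RNA in the microglial difference was not tested. Both neutrophil libraries of this mouse, at 208 (V3.0) and 179 (V3.1) CPM, lay above the 21.5 to 60.8 of the other 4. Its *Junb* was also the highest in neutrophils (169 against 86.3 and 93.0) and in monocytes (571 against 209 and 218), but not in microglia (259 against 264 and 234). *Atf3* in microglia differed by 0.03 (interval −0.26 to 0.32). Of the 9 members, 0 were called by edgeR and 0 by DESeq2, where 0.637% of 13188 genes were called by edgeR, and 2 members, *Jun* and *Fos*, had an unadjusted p below 0.05. This fit sets 1 mouse against 2, the lone mouse is assumed to vary like the others, and no test was made in the rarer cell types. The share of all genes with an unadjusted p below 0.05 is not given here either.

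Within single microglia, AP-1 genes were detected together about as often as their separate shares predict. For the 20 pairs of members with at least 10 expected cells, the ratio of observed to expected cells ran from 0.892 to 1.28 with a median of 1.03, where the members paired with microglial marker genes gave a median of 1.00 over 78 pairs. *Jun* and *Jund* were found together in 1821 cells against 1619 expected, a ratio of 1.12, and above 1 in 6 of 6 libraries (1.06 to 1.18). *Jun* and *Junb* gave 1745 against 1635 (1.07), also above 1 in all 6 libraries. *Junb* and *Jund*, the most widely detected pair, gave 1.02. *Atf3* was paired with *Junb* in 188 cells against 166 expected (1.14) and with *Jun* in 120 against 120 (1.00). In the DNC-NONE libraries alone the median was 1.00 and 10 of 20 pairs lay above 1, and of the pairs with at least 10 expected cells in each of the 6 libraries, *Jun* with *Jund* and *Jun* with *Junb* alone lay above 1 in all of them. These ratios are descriptions, since cells of a library share their source.

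**Figure D5:**
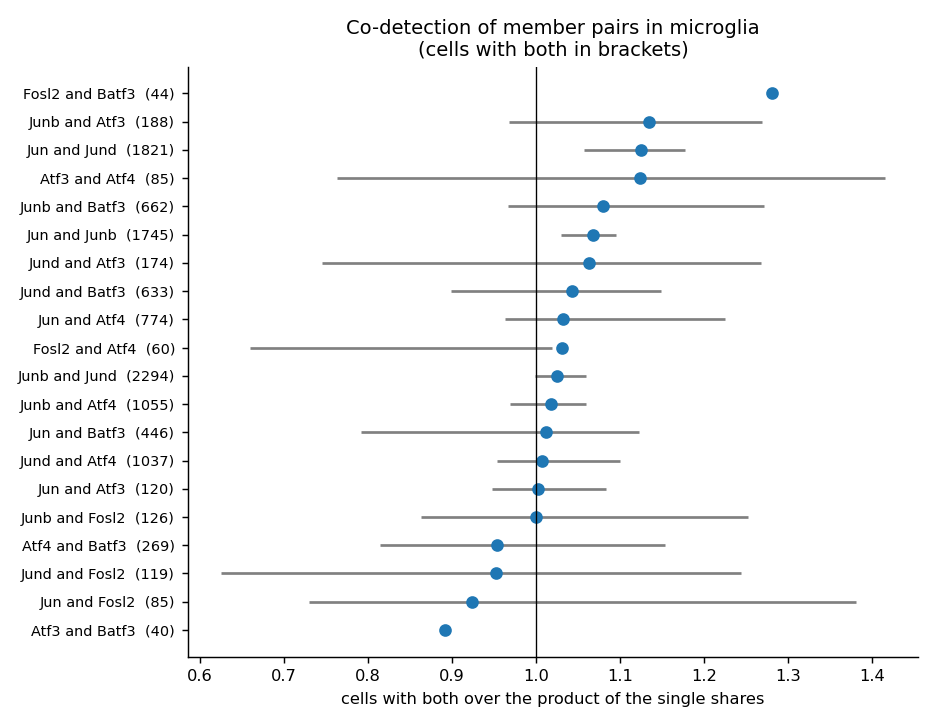
Ratio of observed to expected cells with both genes (x axis) for 20 pairs of AP-1 genes in microglia at 2000 UMIs per cell; points pool all libraries and grey lines span the libraries with at least 10 expected cells. Most pairs lie near 1, and *Jun* with *Jund* and *Jun* with *Junb* lie above 1 in every library.

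In neutrophils the ratios were larger on far fewer cells. *Junb* and *Fos* were found together in 21 cells against 10.6 expected (1.98), *Junb* and *Jund* in 34 against 19.5 (1.74), *Jund* and *Fos* in 19 against 11.4 (1.67) and *Fos* and *Fosl2* in 20 against 12.2 (1.65). All 6 pairs with at least 10 expected cells lay above 1, with a median of 1.66. Without thinning, 7 of 10 pairs did, and the median was 1.11. Neutrophil pairs of a member with an immediate early or chemokine gene ran above 1 as well. At 2000 UMIs 27 of 29 did, with a median of 1.26, and without thinning 35 of 49, with a median of 1.04. Since neutrophil markers fill so much of these cells, a draw to 2000 UMIs need not leave equal UMIs of other genes. The part of this in the ratios was not tested. In monocytes 3 pairs had at least 10 expected cells, and *Junb* with *Fos* was found in 16 cells against 14.3 (1.12), *Junb* with *Fosl2* in 12 against 10.8 (1.11) and *Junb* with *Jund* in 7 against 11.6 (0.606). With monocytes drawn to 3000 UMIs, 0 of 4 pairs lay above 1.

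Genes around AP-1 were followed in 4 lists. Among 15 tested bZIP genes outside the members, 6 were called higher and 5 lower in neutrophils than in microglia (2 and 10 with no scaling factors). *Jdp2*, a partner and repressor of Jun proteins, was higher by 4.33, and *Maf*, a macrophage identity factor, fell by 2.91. Of 12 immediate early genes outside AP-1, 8 were called higher and 1 lower (4 and 4 with no scaling), led by *Dusp1* (6.13), a phosphatase that switches off MAP kinases, *Ier2* (5.34) and *Ier3* (3.70). *Dusp1* was at 50.4, 148 and 99.0 CPM in neutrophils and at 3.01 to 4.54 in microglia. *Ier2* (12.8, 12.7 and 10.0 CPM) and *Ier3* (9.43, 10.2 and 9.23 CPM) were also low in microglia. Such genes could pass the filter on low counts through the other cell types alone. The count of higher immediate early genes and the median of that list are therefore not independent of the filter. Of 13 MAP kinase and serum response genes, 5 were higher and 3 lower (1 and 9 with no scaling), with *Dusp1*, *Map2k4* (1.98) and *Elk3* (−1.89) changed most, and *Map2k4* was at 0.51 and not called with no scaling. Of 7 *Atf4* targets, 3 were higher and 4 lower (2 and 5 with no scaling), with *Slc7a11* (6.16), *Sesn2* (3.57) and *Phgdh* (−3.38) changed most. *Slc7a11* and *Sesn2* had no UMIs in border macrophages and were lower in microglia, and could pass the filter through neutrophils alone. The count of higher *Atf4* targets is thus not independent of the filter either. The list medians, 0.18 for bZIP genes, 1.25 for immediate early genes, 0.09 for MAP kinase genes and −1.60 for *Atf4* targets, stand beside −0.16 for all genes.

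In border macrophages against microglia, 2 bZIP genes were higher and 1 lower, with *Jdp2* at 2.98 and *Maf* at 0.66. Of the immediate early genes 4 were higher and 1 lower, led by *Dusp1* (4.07), *Klf4* (2.80) and *Ier3* (2.72), although *Dusp1* rested on 7 UMIs and had 0 in mouse 3. *Klf4* had 4, 3 and 1 UMIs and *Ier3* 3, 3 and 1 in border macrophages of mice 1, 2 and 3. *Klf4* was at most 11.7 CPM in microglia and 3.96 in neutrophils, and could pass the filter through border macrophages alone. Its passing is thus not independent of its differences from either type. *Dusp1* and *Ier3* were low in microglia, as given above. Among MAP kinase genes *Dusp1* was higher and *Elk3* lower (−2.76), and among *Atf4* targets *Phgdh* alone was called, at 0 UMIs in border macrophages. The list medians were 0.04, 0.76, −0.49 and −0.71 for bZIP, immediate early, MAP kinase genes and *Atf4* targets, beside −0.45 for all genes. Between neutrophils and border macrophages the counts of higher and lower genes were 4 and 2 for bZIP genes, 8 and 2 for immediate early genes, 5 and 0 for MAP kinase genes and 2 and 2 for *Atf4* targets. With no scaling factors they were 1 and 7, 1 and 2, 0 and 0, and 1 and 2. With TMM scaling, the largest changes were in *Maf* (−3.57), *Cebpd* (2.38) and *Mafg* (1.82) among bZIP genes, *Klf4* (−3.33), *Ppp1r15a* (−3.07, with 4 UMIs in border macrophages) and *Ier2* (2.93) among immediate early genes, and *Map2k4* (3.74) and *Dusp1* (2.06) among MAP kinase genes. With no scaling factors *Mafg* (0.39), *Map2k4* (2.31) and *Dusp1* (0.63) were not called (lowest adjusted p = 0.120). Of the *Atf4* targets called, *Ppp1r15a* was lower, and *Slc7a11* and *Sesn2* had 0 UMIs in border macrophages, so no fold is given. Since *Slc7a11* and *Sesn2* could pass the filter through neutrophils alone, the count of higher targets is not independent of it. Between kits 0 genes of the 4 lists were called by edgeR and 0 by DESeq2. By edgeR, 10 of the 56 tested had an unadjusted p below 0.05, with no share of all genes given beside it. With inhibitors, *Klf2* (0.89 ± 0.11) and *Ddit4* (1.17 ± 0.11) were called higher in microglia, and no other listed gene was. As for the members, this sets 1 mouse against 2, and the mouse and the inhibitors cannot be told apart. With V3.0 libraries only, the calls of *Klf2* and *Ddit4* did not both hold.

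Over the 9 sums of 3 cell types and 3 mice, the genes outside the members whose log2 levels followed *Jun* most closely were *Tbc1d5* (Pearson r = 0.990), *Dcxr* (0.986) and *Qdpr* (0.984), of 7950 genes. Those nearest to *Fos* were *Adk* (0.980), *Coro7* (0.969) and *Grk6* (0.968). Those nearest to *Atf3* were *Pigf* (0.998), *Zc3h10* (0.994) and *Fbxl19* (0.993), although the *Atf3* pattern among border macrophages rests on 1 UMI in mouse 3. The 9 points share 3 mice and differ in depth, so these values only describe the pattern.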

How the data were processed

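The authors deposited, per the labels and the study's methods, the counts of unique molecular identifiers (UMIs) per gene and barcode that Cell Ranger 5.0.0 made against mm10 (GRCm38), with no normalization and before their own removal of poor cells in Seurat; base calling was by bcl2fastq. The AP-1 members, marker genes and gene lists were chosen with earlier results of these data known. A barcode was kept if it had from 1000 to 4000 genes, no more than 12000 UMIs and no more than 15% of them mitochondrial. A cell was assigned to a type with at least 3 markers of it, at least 5 marker UMIs and at least 3 times as many as of any other type, and mixed cells were left out as possible doublets, with no doublet caller run. UMIs were summed per cell type and mouse (9 sums) or per library (6 sums) and tested, two-sided, by edgeR 4.0.16 in R 4.3.3 (quasi-likelihood, TMM, filterByExpr, Benjamini-Hochberg over all genes), a step tested on simulated data. A gene was called past both a log2 fold change of 0.58 and an adjusted p of 0.05. DESeq2 1.42.0, other scaling, filters, gates and kits, and leaving out each mouse were alternatives. The wider gate (2 markers, 1 times), the monocytes and the fit with no scaling factors were added after seeing the data.

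Same-numbered libraries come from the same mouse, and their deviations from the kit means had correlations of 0.349 (mouse 1), 0.541 (mouse 2) and 0.168 (mouse 3), which made the mouse the block of an alternative fit. Shares of cells were computed after drawing each cell to 2000 UMIs, with exact Clopper-Pearson 95% intervals. A level of 0 allows up to 3 counts of the total. Expected co-detection is the product of both genes' shares within each library. The named genes are the 9 members, of which those without a value in a comparison are only counted there, and from each list the 3 called genes with the largest change. Values of some listed genes are not reported here.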

Additional observations from a re-analysis of the deposited data

Results flagged for a closer look

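*Fos* in monocytes was singled out because 1 of 6 libraries lay far from the rest: the DNC-INHIB V3.1 library of mouse 2 had 777 CPM, the next highest 303 and the lowest 37.4. Of 25 groups of 6 libraries examined this way, 1 was singled out, and chance does so in about 1 of 20 groups.

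In 3 cases the difference between kits, V3.1 minus V3.0, went one way in the DNC-INHIB mouse and the other way in both DNC-NONE mice. All members with enough UMIs in microglia, neutrophils and monocytes were looked at for this. With 3 mice such a pattern of signs is common by chance, so the number of cases is a description only. *Fos* in microglia changed by 0.298 CPM in mouse 2 and by −0.718 and −0.310 in mice 1 and 3. *Jund* in neutrophils changed by 10.8 in mouse 2 and by −20.1 and −65.5 in mice 1 and 3. *Batf3* in monocytes changed by 22.4 in mouse 2 and by −41.2 and −5.76 in mice 1 and 3. None of these differences between mice was tested, and with 1 DNC-INHIB mouse the mouse and the inhibitors cannot be told apart.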

How the results depend on the processing

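Of 80 values of single members between kits, all kept their direction and side of the thresholds under the alternatives tried. Depth limits border macrophages most, where no member had more than 25 UMIs. Against microglia, 1 border macrophage member was called, and 2 by DESeq2, without the filter on low counts and in the fit blocked by mouse. The genes called there (762) became 1461 by DESeq2, 493 with the stricter gate and 1351 with the wider gate, and 506 to 606 without 1 mouse. In the same comparison *Jun* turned to −0.47 with V3.1 libraries only, *Fos* to −5.67 with the stricter gate, and *Batf3* to 0.16 with V3.1 libraries only and 0.059 with the wider gate. *Jund* turned from −0.02 to 0.10 by DESeq2, 0.10 with RLE size factors, 0.21 with V3.0 libraries only, 0.62 with the wider gate, and ran from −0.38 to 0.071 without 1 mouse (0.071 without mouse 1, 0.061 without mouse 3). In neutrophils against microglia, 5127 genes became 3268 with V3.0 libraries only, which also tests fewer genes. With no scaling factors *Junb* turned to −1.15, *Jund* to −0.79 and *Atf4* to −1.17, and without 1 mouse *Junb* ran from −0.068 (without mouse 2) to 0.58. In neutrophils against border macrophages, 5 members became 3 with no scaling factors and 3 to 5 without 1 mouse (3 without mouse 2), and 2394 genes became 1526 with V3.0 and 1581 with V3.1 libraries only. There *Jund* turned to −0.74 with no scaling factors and −0.0024 with the wider gate, and *Atf4* to −0.62 with no scaling factors. Between kits, 373 genes became 157 to 415 without 1 mouse, 190 without mouse 1 and 157 without mouse 2, and 545 blocked by mouse (replicate block). With inhibitors, 84 genes became 14 by DESeq2, 1 with V3.0 libraries only, 128 without the filter and 35 with the stricter gate. *Fosl2* turned to 0.077 with V3.1 and *Atf3* to −0.0051 with V3.0 libraries only. Leaving out mouse 1 or 3 there left 1 mouse against 1, with no test. The cause was not tested in any of these cases unless stated. The block changed no other call than those given with the results.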

Other observations

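A small set of microglia held far more *Atf3* than the rest. In all, 20 of 18867 microglia had 3 or more *Atf3* UMIs, between 1 and 5 in each of the 6 libraries, with up to 21 UMIs in a cell of the DNC-NONE V3.1 library of mouse 3, and these cells held 94 of 940 microglial *Atf3* UMIs. The chemokine genes *Ccl3* and *Ccl4* were detected in 50% and 45% of them, against 5.08% and 4.69% of the 767 microglia with 1 or 2 *Atf3* UMIs and 2.13% and 1.43% of the 18080 with none. Of the 20 cells, 11 had *Ccl3* or *Ccl4*, with at least 1 such cell in each of the 6 libraries, where 2.81% to 5.27% of all microglia had either. The mRNA decay factor *Zfp36* was in 65%, 26.6% and 28.3% of the same groups, and *Ier3* in 25%, 4.04% and 2.93%. Not every immediate early gene was more frequent in the 20 cells than in cells with no *Atf3*, with *Btg2* in 50% against 55.3%, *Klf2* in 10% against 10.1% and *Klf4* in 0% against 3.41%. *Fos* was in 5% of the 20 cells and *Fosb* in 0 of them. The neutrophil gene *S100a8* was in 75% against 69.2% of cells with no *Atf3*, and *P2ry12* in 95% against 99.8%. The median depth of the 3 groups was 4396, 3712 and 3507 UMIs. These cells were picked after seeing the data, and the shares are descriptions without a test.

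At 2000 UMIs per cell, *Atf3* and *Ccl3* were found together in 26 microglia against 6.14 expected, and *Atf3* and *Ccl4* in 23 against 4.77, counts too small for a ratio. *Jun* was found with *Ier3* in 111 microglia against 83.4 expected (1.33) and with *Ccl4* in 59 against 47.7 (1.24). Over 88 pairs of a member with an immediate early or chemokine gene the median ratio was 1.07.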
